A study of Mus musculus with 12 samples.

Results

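Retinoic acid is made from vitamin A in steps, and the last step, the oxidation of retinaldehyde, is carried out by the ALDH1A enzymes. It binds nuclear receptors (RAR) that pair with RXR on DNA, and cellular binding proteins (CRABP) carry it inside the cell. In salivary glands, retinoid signalling is known for a role in the growth and branching of the epithelium. The genes described here are 9 listed retinoid genes out of 43280 gene symbols counted: the synthesis enzymes Aldh1a1, Aldh1a2 and Aldh1a3, the receptors Rara, Rarb and Rarg, and the binding and transport proteins Crabp1, Crabp2 and Rbp4. They were chosen by name, with earlier results of these data known. Of these, 9 of 9 passed the filter on low counts that left 17030 genes.

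The cells came from the submandibular glands of embryonic day 15 mice of the strain labelled Tg(KRT5-Venus)1Sgkd, whose Venus fluorescence reports the promoter of keratin 5, a basal cell keratin. E-cadherin+ cells were split in the sorter on Venus and on Kit, a receptor tyrosine kinase, and 3 libraries were made of each population: Kit+K5+ and Kit+K5- on the Kit+ side, Kit-K5+ and Kit-K5- on the other. All groups carry the transgene, and no treatment is named. The sources used here do not say how many embryos a library pools, so p-values measure only the spread between these libraries.

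The 12 libraries held 5589037 to 13724364 counts, and the shallowest was Kit-K5+ replicate 3. The Kit-K5- libraries stood apart in markers of other cells. A list of 18 genes of epithelium in general, led by Epcam and Esrp1, summed to 342 to 447 CPM (read counts scaled by library size) in Kit-K5- libraries and to 1162 to 2323 CPM in the other 9. A list of 16 mesenchyme genes, led by the collagens Col3a1 and Col1a2, summed to 10971 to 18227 CPM in Kit-K5- and to 250 to 760 CPM in the other 9, with 0 of 16 at 0 in any population. By these markers the E-cadherin+ label of the Kit-K5- libraries is accompanied by abundant mesenchymal RNA. The RNA of E-cadherin itself, Cdh1, stood at 149 to 198 CPM in Kit-K5- libraries and at 503 to 1111 CPM in the other 9. Mast cell genes (8, led by Cpa3 and Hdc) summed to 120 to 5135 CPM in the Kit+K5- libraries and 3.75 to 47.8 CPM in the Kit+K5+ libraries. Their sums were 2.75 to 11.6 CPM for Kit-K5+ and 16.5 to 36.3 CPM for Kit-K5-. In bulk samples, fewer cells of a type and less RNA per cell cannot be told apart.

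**Figure D1:**
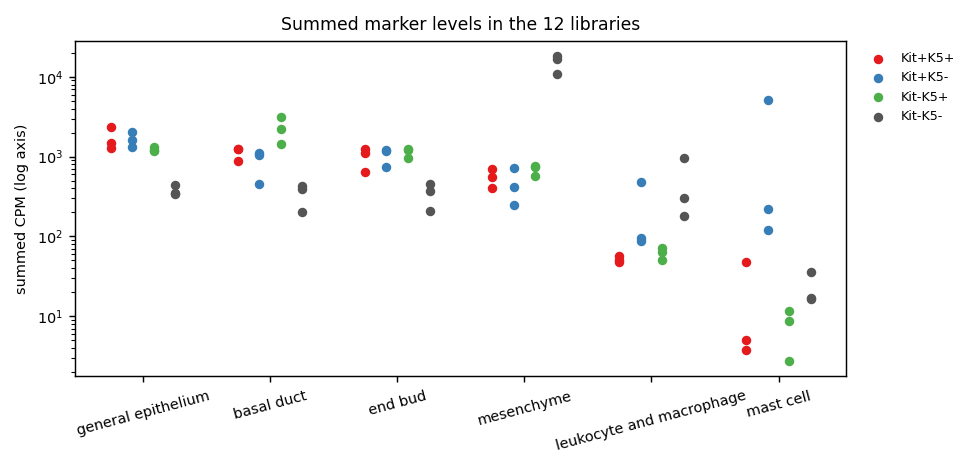
Summed CPM (log axis) of marker lists in each library, 3 points per population. The 3 Kit-K5- libraries are the highest for mesenchyme, at 10971 to 18227 CPM, and the lowest for general epithelium, at 342 to 447 CPM.

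The remaining lists are given here once, as summed CPM. Basal duct genes (12, led by Itga6 and Trp63) ranged over 1433 to 3153 in Kit-K5+ libraries and over 202 to 425 in Kit-K5- libraries, with 450 to 1249 in the Kit+ libraries. End bud genes (8, led by Etv5 and Fgfr2) ranged over 208 to 456 in Kit-K5- and 646 to 1255 elsewhere. Leukocyte and macrophage genes (12, led by Cd68 and Laptm5) ranged over 180 to 963 in Kit-K5- libraries, over 87.4 to 485 in Kit+K5- libraries and over 47.4 to 71.4 in the K5+ libraries. In Kit-K5- libraries the sums were 48.8 to 59.3 for endothelium (8 genes, led by Emcn and Tek), 92.4 to 780 for erythroid cells (7, led by Hbb-bs and Hbb-bt), 81.2 to 183 for neurons (10, led by Gap43 and Elavl4) and 43.2 to 94.4 for Schwann cells and glia (8, with Fabp7 among the highest). In the other 9 libraries these 4 lists reached at most 25.4, 25.6, 16.5 and 78.3.

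Of the 3 synthesis enzymes, Aldh1a2 was far higher in the Kit-K5- libraries than in the other 9, while Aldh1a1 was present in all and highest on average in Kit-K5+ cells. Aldh1a2 (chromosome 9, 71215789 to 71296243, plus strand, GENCODE M21 on GRCm38) is the main retinaldehyde dehydrogenase of many embryonic mesenchymes. It stood at 181, 151 and 97.6 CPM in the 3 Kit-K5- libraries. In Kit-K5+ libraries it stood at 1.88, 1.51 and 7.46 CPM, in Kit+K5- at 4.97, 0.737 and 2.48, and in Kit+K5+ at 1.84, 2.99 and 0.388. Each Kit-K5- library was thus above every library of the other populations, and the other 3 populations overlapped. All 3 Kit-K5- libraries lay above the other 9 for 12% of the genes tested, and for 5 of these 9: Aldh1a2, Aldh1a3, Rara, Crabp1 and Rbp4.

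Compared with Kit-K5- cells, Aldh1a2 was lower by 5.37 ± 0.73 (log2 ± SE) in Kit-K5+ cells (adjusted p = 2.72e-04) and by 5.70 ± 0.73 in Kit+K5- cells (adjusted p = 1.25e-04). The mesenchyme list moved the same way, with 13 of 16 genes lower in Kit-K5+ and 16 of 16 lower in Kit+K5- cells than in Kit-K5- cells. Its part in the differences of Aldh1a2 and of the other genes that were highest in Kit-K5- libraries was not tested.

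Aldh1a1 (chromosome 19, 20492715 to 20643465, plus strand) encodes a second retinaldehyde dehydrogenase, common in adult epithelia. It stood at 162, 106 and 42.5 CPM in Kit-K5+ libraries and at 95.003, 61.8 and 52.8 CPM in Kit+K5+. It stood at 82.3, 47.5 and 23.3 CPM in Kit+K5- and at 52.4, 26.0 and 16.2 CPM in Kit-K5- libraries. Every neighbouring pair in this order overlapped. Within Kit- cells it was higher in K5+ by 1.71 ± 0.53 (log2; adjusted p = 0.0429), and by 1.69 ± 0.23 with the run as a block (adjusted p = 1.94e-04), but scaling to general epithelial genes gave -0.07 (adjusted p = 0.899). Without the block, the call held in 6 of 12 fits that left out 1 library, with a highest adjusted p of 0.165. It was lost without either of Kit-K5+ replicates 1 and 2, Kit-K5- replicates 2 and 3, Kit+K5+ replicate 2 or Kit+K5- replicate 2. Of its 50-base windows 3.06% also occur in Aldh1a7, a close paralog with 16620 counts over the 12 libraries.

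Aldh1a3 (chromosome 7, 66390890 to 66427517, minus strand), the enzyme known from the developing eye and nose, stood at 20.6, 37.1 and 19.9 CPM in Kit-K5- libraries and between 4.75 and 12.6 CPM in the other 9. Against Kit-K5- cells it was lower by 1.70 ± 0.43 on the log2 scale in Kit-K5+ cells (adjusted p = 0.0158) and by 1.33 ± 0.42 in Kit+K5- cells (adjusted p = 0.0363). These calls held in 9 and 7 of 12 fits that left out 1 library. Without Kit-K5+ replicate 1 or 2 or Kit-K5- replicate 2 the first was lost, at adjusted p up to 0.0851. The second was lost without any 1 of the 3 Kit+K5- libraries or without Kit-K5- replicate 1 or 2, at adjusted p up to 0.188.

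Per kb of exon, the summed level of the 3 enzymes changed its main component between populations. Aldh1a2 made up 84.2% ± 0.816 of the sum in Kit-K5- libraries, with Aldh1a1 at 8.08% ± 2.68 (SD, n = 3). Aldh1a1 made up 84.4% ± 6.53 in Kit+K5+ libraries, and its share was 71.6% ± 13.9 for Kit+K5- and 81.5% ± 19.7 for Kit-K5+. Aldh1a2 reached its highest share outside Kit-K5- in Kit-K5+ replicate 3, at 22.5%.

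**Figure D2:**
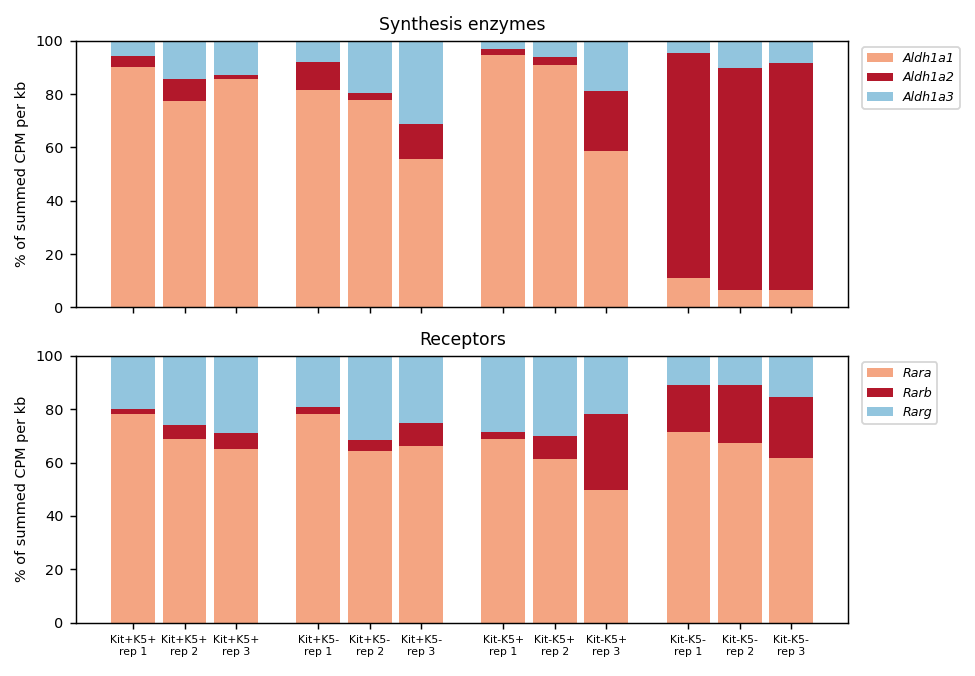
Share (%) of the summed CPM per kb of exon for the 3 synthesis enzymes (top) and the 3 receptors (bottom), 1 bar per library. Aldh1a2 holds 83.4% to 85.01% of the enzyme sum in Kit-K5- libraries, and Rara is the largest receptor share in all 12 libraries. The exon length of Rarb includes 1793 bases shared with Top2b on the opposite strand.

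Of the 3 receptors, Rara had the highest level per kb in each of the 4 populations. Rara (chromosome 11, 98927818 to 98974942, plus strand), the broadly expressed receptor, stood at 152, 126 and 105 CPM in Kit-K5- libraries. It stood at 89.6, 79.3 and 78.2 in Kit-K5+, at 79.3, 76.5 and 73.6 in Kit+K5+ and at 65.3, 57.7 and 69.0 in Kit+K5- libraries. Against Kit-K5- cells, Rara was lower by 0.64 ± 0.18 (log2) in Kit-K5+ cells (adjusted p = 0.0302) and by 0.9996 ± 0.18 in Kit+K5- cells (adjusted p = 0.00182). The first difference was not called with upper-quartile scaling (adjusted p = 0.0640), without a filter on low counts (0.0619), or in 4 of 12 fits that left out 1 library. Those 4 lacked Kit-K5- replicate 1 or 2 or Kit-K5+ replicate 2 or 3, with adjusted p up to 0.152.

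Rarb (chromosome 14, 16430839 to 16819156, minus strand) encodes a receptor that is itself a classic target of retinoic acid. Its RefSeq promoter is printed because it was the only one, among 13 promoters of 7 of these genes (Aldh1a3 and Crabp2 have no entry in the table), to hold the direct repeat searched for. The window runs from 250 bases before to 50 after a start site, at chr14:16575427-16575726 (GRCm38.p6, minus strand, read 5′ to 3′ along the gene), and capitals mark the repeated hexamers.
Rarb promoter: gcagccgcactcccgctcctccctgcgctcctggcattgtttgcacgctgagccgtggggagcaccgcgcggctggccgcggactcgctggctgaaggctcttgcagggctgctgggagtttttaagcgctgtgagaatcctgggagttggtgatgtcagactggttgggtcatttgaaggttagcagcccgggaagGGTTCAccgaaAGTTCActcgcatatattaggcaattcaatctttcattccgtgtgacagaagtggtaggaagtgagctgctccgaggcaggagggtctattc
The hexamers were AGGTCA, its variant GGGTCA, the hexamer AGTTCA and its variant GGTTCA, any pair of them in the same orientation spaced by 1, 2 or 5 bases, on both strands. The Rarb match, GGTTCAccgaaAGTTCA, has a spacer of 5 and starts at position -53 from the start site. A spacer of 5 was found in 32 of 32851 promoters (0.0974%), and any of the 3 spacers in 193 (0.588%). Of 39 other retinoid pathway genes with a promoter, Cyp26a1 and Bco1 held a match. Cyp26a1 did not pass the filter on low counts, and Bco1 had only 5 to 9 counts per population. A match is a description of the letters in this window.

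Rarb stood at 45.1, 50.0 and 47.8 CPM in Kit-K5- libraries. In Kit-K5+ libraries it stood at 4.38, 13.74 and 53.8 CPM, in Kit+K5+ at 2.31, 6.94 and 8.14, and in Kit+K5- at 2.54, 4.74 and 10.8. The Kit-K5- libraries were close together, whereas Kit-K5+ replicate 3 was above all of them and the other Kit-K5+ libraries were far below. Against Kit-K5- cells, Rarb was lower by 3.001 ± 0.76 in Kit+K5- cells (log2; adjusted p = 0.0127), a call lost without Kit+K5- replicate 2 (adjusted p = 0.0577).

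Between Kit-K5+ and Kit-K5- cells Rarb was not called, at -1.004 ± 0.70 (adjusted p = 0.358). It was called lower with the run as a block, at -1.65 ± 0.50 (adjusted p = 0.0284), and without Kit-K5+ replicate 3, at -2.41 (adjusted p = 0.0319). The differences within runs were -3.30, -1.85 and 0.17. For Kit+K5+ against Kit-K5+ cells Rarb was not called, at -2.04 ± 0.74 (adjusted p = 0.172), but was with DESeq2, at -2.08 (adjusted p = 0.0462), and without the filter on low counts, at -1.94 (adjusted p = 1.23e-04). Rarb shares 1793 exon bases with Top2b on the opposite strand. The sources used here do not give the strand setting of the counting, so reads in that stretch cannot be told apart. Top2b stood at 209, 447 and 373 CPM in the 3 Kit-K5+ libraries. It ranged over 375 to 473 CPM in Kit+K5+, 258 to 386 CPM in Kit+K5- and 326 to 362 CPM in Kit-K5- libraries. The part of Top2b reads in the Rarb counts was not tested.

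Rarg (chromosome 15, 102234938 to 102257517, minus strand), the receptor known from skin and other squamous epithelia, stood at 36.4, 37.9 and 33.7 CPM in Kit-K5+ libraries. It ranged over 19.6 to 31.8 CPM in Kit+K5+ libraries, over 15.6 to 27.6 CPM for Kit+K5- and over 19.8 to 25.5 CPM for Kit-K5-. The 3 Kit-K5+ libraries were thus above the other 9, which was so for 2.04% of genes tested. The difference within Kit- cells did not pass the test, at 0.67 ± 0.27 on the log2 scale (adjusted p = 0.106), and scaling to general epithelial genes gave -1.03 (adjusted p = 0.0350). Between Kit+K5- and Kit-K5- cells the value was 0.02 ± 0.27.

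As shares of the receptor sum per kb, Rarb took 20.9% ± 2.96 in Kit-K5- libraries and 13.3% ± 13.4 in Kit-K5+ libraries. Its share was 4.35% ± 2.17 for Kit+K5+ and 5.16% ± 3.11 for Kit+K5-. Rarg took 12.3% ± 2.58 in Kit-K5- and 24.9% to 26.8% on average in the other 3 populations. The exon length used for Rarb includes the 1793 bases shared with Top2b. How the reads there bear on the 3 receptor shares was not tested.

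Of the binding and transport proteins, Crabp1 and Rbp4 were highest in every Kit-K5- library, and Crabp2 was not. Crabp1 (chromosome 9, 54764748 to 54773110, plus strand), which binds retinoic acid in the cytoplasm, stood at 25.6, 14.7 and 9.80 CPM in Kit-K5- libraries and at 0.383 to 2.75 CPM in the other 9. It was lower by 4.45 ± 0.60 (log2) in Kit-K5+ (adjusted p = 2.59e-04) and by 2.88 ± 0.54 in Kit+K5- cells (adjusted p = 0.00200), each against Kit-K5-.

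Rbp4 (chromosome 19, 38116629 to 38125281, minus strand), the carrier of retinol in blood, stood at 9.84, 18.1 and 9.49 CPM in Kit-K5- libraries. It had 479 counts in all in the Kit-K5- libraries, against 8 for Kit-K5+, 9 for Kit+K5+ and 1 for Kit+K5-. The ratio of scaled counts was 32.2 for Kit-K5- over Kit-K5+ (exact 95% interval 16.2 to 75.1) and 325 for Kit-K5- over Kit+K5- (58.0 to 12851), intervals that cover counting error only. Rbp4 was called lower in Kit-K5+ (adjusted p = 0.00577) and in Kit+K5- cells (adjusted p = 8.48e-04) than in Kit-K5- cells.

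Crabp2 (chromosome 3, 87948666 to 87953376, plus strand), which delivers retinoic acid to the receptors, followed none of these orders. It stood at 21.98, 16.9 and 12.4 CPM in Kit+K5- libraries and at 4.98, 9.16 and 6.07 CPM in Kit+K5+. The difference did not pass the test, at -1.34 ± 0.73 (log2, 95% interval by normal approximation -2.77 to 0.09, adjusted p = 0.760). In Kit-K5+ libraries it stood at 2.13, 6.73 and 38.3 CPM, and in Kit-K5- libraries at 8.79, 17.9 and 19.1. The difference between these was 0.03 ± 0.71, and -1.79 (adjusted p = 0.0502) without Kit-K5+ replicate 3. That library, the shallowest, was also the highest of its population for Rarb, Aldh1a2 and Aldh1a3. Of the 3, its sum was the lowest for mesenchyme (568 CPM) and the highest for endothelium (25.4 CPM) and neurons (16.5 CPM). For the remaining lists its sum was the lowest or in between. What sets this library apart was not tested.

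**Figure D3:**
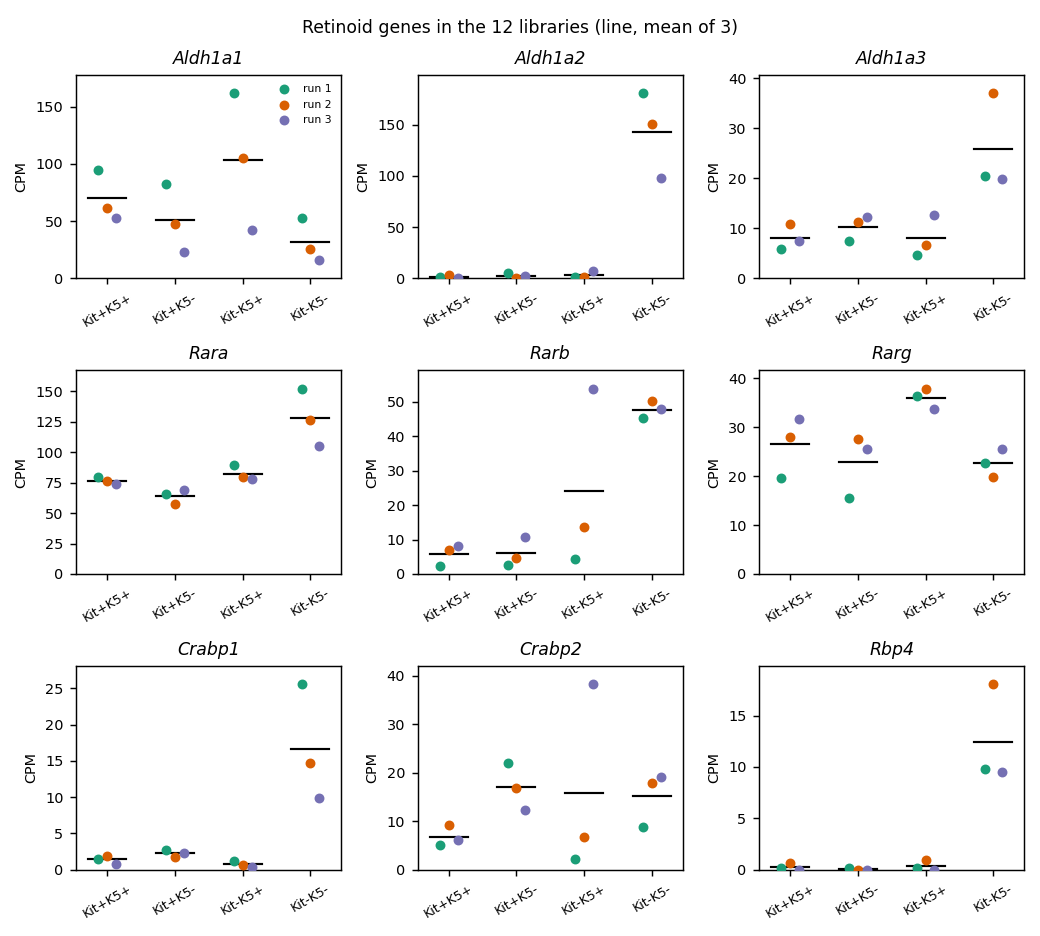
CPM of the 9 genes in the 12 libraries, colored by run of library numbers, with a line at the mean of 3. For Aldh1a2, Aldh1a3, Rara, Crabp1 and Rbp4 the 3 Kit-K5- libraries lie above the other 9, and Kit-K5+ replicate 3 stands high for Rarb (53.8 CPM) and Crabp2 (38.3 CPM).

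Counted by comparison, the retinoid genes differed where Kit-K5- cells were one side. Against Kit-K5-, 1 of 9 was higher and 5 lower in Kit-K5+ cells, where 16.5% of all genes were called (7.38% higher, 9.1% lower). In Kit+K5- cells 0 of 9 were higher and 6 lower, where 21.3% of all genes were called (10.2% higher, 11.1% lower). The 9 genes were chosen with earlier results of these data known, so the counts are a description. Their median log2 difference was -1.004 in the first, beside 0.04 over all genes, and -1.33 in the second, beside 0.05. With the run as a block, 23.8% and 29.2% of all genes were called in these comparisons. Aldh1a1 was then also higher in Kit+K5- cells than in the Kit-K5- population, at 0.69 ± 0.22 (adjusted p = 0.0348), from 0.69 ± 0.52 (adjusted p = 0.387) without it. Scaling to general epithelial genes gave -1.59 for it (adjusted p = 0.00794). That scaling moved the median of all genes to -1.67 in the first comparison and to -2.05 in the second. The 5 and 6 genes named lower were lower under it too, an outcome that this shift favours.

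Between K5+ and K5- cells within Kit+, edgeR's quasi-likelihood test called 0 of 9 members and 0.0% of all genes, and with the run as a block 0 of 9 beside 0.317%. At an unadjusted p under 0.05 there were 1161 genes, and DESeq2 called 122. Of the 12 basal duct genes 0 were called, with or without the block. The RNA of keratin 5 itself, Krt5, stood at 1.57, 9.93 and 4.26 CPM in Kit+K5+ libraries. In Kit+K5- libraries it stood at 0.317, 4.63 and 2.33 CPM, a range that overlaps. Krt5 stood at 22.9, 13.5 and 20.3 CPM in Kit-K5+ and at 0.853, 4.60 and 7.15 CPM in Kit-K5- libraries. Between Kit+K5+ and Kit-K5+ cells the quasi-likelihood test called 0 of 9, beside 0.658% of all genes (4.63% with the block). There 3149 genes had an unadjusted p under 0.05, and DESeq2 called 1076.

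**Figure D4:**
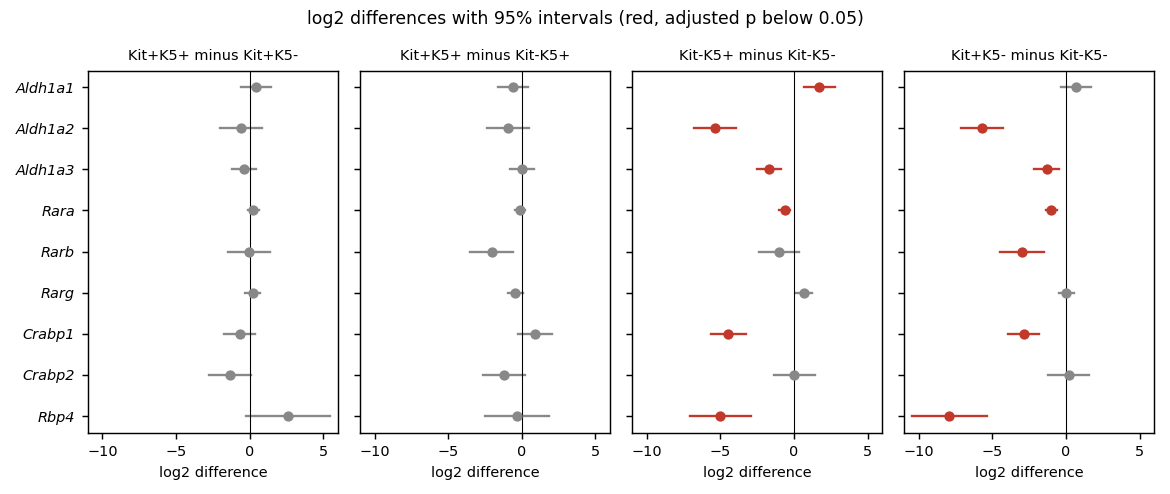
Log2 differences of the 9 genes in the 4 pairwise comparisons, with 95% intervals (normal approximation) and in red those with adjusted p below 0.05. In both comparisons against Kit-K5- cells Aldh1a2, Aldh1a3, Rara, Crabp1 and Rbp4 are lower, Rarb is lower in Kit+K5- cells, and Aldh1a1 is the 1 gene higher, at 1.71 in Kit-K5+ cells (-0.07 when scaled to general epithelial genes).

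Whether the K5 difference depended on Kit was tested by the interaction, for which 4.02% of all genes were called, 2.81% with a positive value. It was called for Aldh1a2 (4.77 ± 0.99 on the log2 scale, adjusted p = 0.0153), Crabp1 (3.77 ± 0.79, adjusted p = 0.0150) and Rbp4 (7.59 ± 1.75, adjusted p = 0.0269). Each K5 difference was more negative within Kit- than within Kit+ cells, and that of Rbp4 rests on 1 count in the Kit+K5- libraries. In the mesenchyme list the interaction was called with a positive value for 11 of 16 genes, at a median of 4.35. The part of mesenchymal RNA in the interactions of the retinoid genes was not tested. Rbp4 lost the call in 6 of 12 fits that left out 1 library, those without Kit-K5+ replicate 1, Kit-K5- replicate 1 or 2, Kit+K5+ replicate 2 or Kit+K5- replicate 2 or 3 (adjusted p up to 0.171). Aldh1a2 lost it without Kit+K5+ replicate 2 (0.0651) and Crabp1 without Kit-K5- replicate 1 (0.0700). Rara was not called, at 0.89 ± 0.26 (adjusted p = 0.0750), but was with DESeq2 (adjusted p = 0.0283) and with the block (adjusted p = 0.0347), which called 8.33% of all genes.

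Library numbers 1 to 4, 5 to 8 and 9 to 12 each held 1 library of every population, called runs here; the labels do not say what a run shares. Aldh1a1 differed between runs (adjusted p = 0.00344), being lower than in run 1 by 0.76 (log2) in run 2 and by 1.55 in run 3, and the share of genes called was 3.56%. Scaled to general epithelial genes, the difference of run 3 was -1.28 and was not called (adjusted p = 0.0855). In each of the 4 populations its order was run 1, run 2, run 3 from high to low, as for 0.781% of genes. Its levels were 52.4 to 162 CPM in run 1 and 16.2 to 52.8 CPM in run 3. Within runs, Kit-K5+ libraries exceeded Kit-K5- libraries by 1.62, 2.01 and 1.38 on the log2 scale. Rarb was 1.86 higher in run 3 than in run 1 and was not called (adjusted p = 0.0728), though DESeq2 called it (adjusted p = 0.00487).

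**Figure D5:**
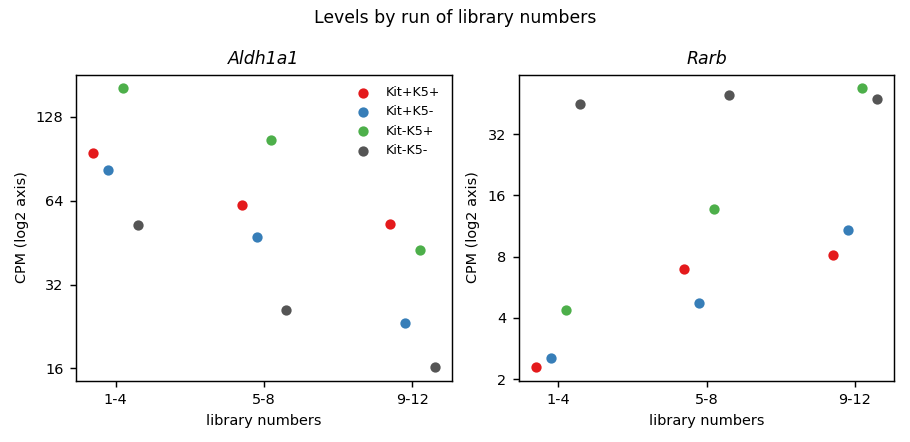
CPM (log2 axis) of Aldh1a1 and Rarb by run of library numbers, 1 point per population. Aldh1a1 is lowest in library numbers 9 to 12 in every population, and Rarb in Kit-K5- libraries stays between 45.1 and 50.0 CPM.

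The wider pathway was read from 58 listed genes, of which 36 passed the filter. In Kit-K5+ against Kit-K5- cells 4 were higher and 5 lower, beside 7.38% and 9.1% of all genes. With the block, 5 were higher and 6 lower there, beside 23.8% of all genes called. In Kit+K5- against Kit-K5- cells 3 were higher and 8 lower, beside 10.2% and 11.1%. The block gave 4 higher and 10 lower, beside 29.2% of all genes called. Between Kit+K5+ and Kit-K5+ cells 1 was lower (5 with the block), beside 0.658% of all genes called (4.63%), and between Kit+K5+ and Kit+K5- cells 0 were called. The median log2 differences in that order were 0.00, -0.24, -0.14 and 0.07, beside 0.04, 0.05, -0.05 and -0.04 over all genes.

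For uptake and storage of retinol, 4 of 8 genes were tested. Stra6, the membrane receptor for the Rbp4 carrier, stood at 110 ± 22.6 CPM in Kit-K5- cells and 8.80 ± 8.64 CPM in Kit-K5+ cells (SD, n = 3). Its mean was 26.0 ± 15.9 CPM for Kit+K5- and 23.6 ± 15.7 CPM for Kit+K5+. It was lower than in Kit-K5- by 3.68 ± 0.77 (log2) in Kit-K5+ (adjusted p = 0.00566) and by 2.08 ± 0.70 in Kit+K5- cells (adjusted p = 0.0494). The second call held in 3 of 12 fits that left out 1 library, those without Kit+K5+ replicate 1, Kit-K5+ replicate 1 or Kit-K5+ replicate 3. Upper-quartile scaling lost it as well (adjusted p = 0.0553).

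Of 16 genes that interconvert retinol and retinaldehyde, 11 were tested. Rdh10, the retinol dehydrogenase needed in the embryo, stood at 27.6 ± 4.07 CPM in Kit-K5- and 43.9 to 54.6 on average in the other populations, and Dhrs3, which turns retinaldehyde back, at 30.1 to 47.3 on average. Neither was called. In Kit+K5- against Kit-K5- cells Rdh5 was lower (-1.64 ± 0.51, adjusted p = 0.0339) and Adh5 higher (0.88 ± 0.28, adjusted p = 0.0383), the latter at -1.24 when scaled to general epithelial genes. Each of these lost its call without either Kit-K5- replicate 1, 2 or 3 or Kit+K5- replicate 2, and Rdh5 also without Kit+K5- replicate 1 or 3 and with no filter on low counts. Of the 3 genes of retinoic acid breakdown, Cyp26b1 alone was tested, at 4.05 ± 5.64 CPM in Kit-K5+ cells and 0.0431 ± 0.0746 CPM in Kit+K5+ cells, the latter from 1 count (adjusted p = 0.0745; 0.0322 with the block).

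Fabp5, which can carry retinoic acid to another nuclear receptor, was higher than in Kit-K5- cells (12.6 ± 3.05 CPM) in Kit-K5+ cells (24.7 ± 3.18, adjusted p = 0.0295) and in Kit+K5- cells (31.0 ± 8.20, adjusted p = 0.00491). Scaled to general epithelial genes, these differences were -0.74 and -0.77 on the log2 scale. The first was lost without Kit-K5+ replicate 1 or 2 or any 1 of the Kit-K5- libraries, and with no filter on low counts. Of 8 coregulators, Ncoa1, a coactivator, was lower in Kit+K5- cells than in the Kit-K5- population (-1.01 ± 0.25, adjusted p = 0.0107), a call lost without Kit-K5- replicate 1 or Kit+K5- replicate 2. Nrip1, a corepressor, differed between runs (adjusted p = 0.00651), a call lost when scaled to general epithelial genes (adjusted p = 0.0565).

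Of 18 genes known to respond to retinoic acid, 8 were tested, and they moved in both directions. Gata6, a transcription factor, stood at 35.9 ± 1.17 CPM in Kit-K5- cells and at 0.891 to 1.58 on average elsewhere, lower by 4.49 ± 0.57 in Kit-K5+ (adjusted p = 1.79e-04) and by 5.02 ± 0.59 in Kit+K5- cells (adjusted p = 5.95e-05). Rai14 and Rarres2 (chemerin) were lower in both comparisons as well, Rai14 at -1.60 ± 0.22 and -2.75 ± 0.23, and Rarres2 at -4.44 ± 0.90 and -4.05 ± 0.86. Meis1, a homeobox gene, was the reverse, at 75.4 ± 20.2 CPM in Kit-K5- and 187 to 226 on average elsewhere, higher by 1.59 ± 0.23 and 1.31 ± 0.23 (adjusted p = 4.67e-04 and 0.00124). Scaled to general epithelial genes, Meis1 gave -0.09 and -0.71.

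Tgm2, a transglutaminase, was highest in Kit-K5+ cells, at 124 ± 37.1 CPM beside 24.1 ± 8.33 CPM in Kit-K5- cells. Its mean was 28.4 ± 9.94 CPM for Kit+K5- and 31.8 ± 13.02 CPM for Kit+K5+. It was higher than in Kit-K5- cells by 2.37 ± 0.38 (adjusted p = 0.00102), and lower by 1.97 ± 0.38 in Kit+K5+ cells than in the Kit-K5+ population (adjusted p = 0.0407). Scaled to general epithelial genes, the first difference was 0.69 and was not called (adjusted p = 0.184). The second call held in 4 of 12 fits that left out 1 library: it was lost without any 1 of the Kit+K5+ libraries, Kit-K5+ replicate 1 or 2, Kit-K5- replicate 2 or 3 or Kit+K5- replicate 3. Meis2 was higher in Kit-K5+ cells than in the Kit-K5- population (1.53 ± 0.38, adjusted p = 0.0159; -0.12 when scaled to general epithelial genes). It lost that call without Kit-K5+ replicate 2 or 3 or Kit-K5- replicate 1 or 2, and differed between runs (adjusted p = 0.00881). In Kit+K5- against Kit-K5- cells, Tshz1 was lower (-0.69 ± 0.19, adjusted p = 0.0189). It lost the call when Kit+K5- replicate 2 or 3 was left out, when Kit-K5- replicate 3 was, and with no filter on low counts.

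The genes whose log2 CPM followed each retinoid gene most closely over the 12 libraries are given as a description; these libraries share 4 populations and 3 runs. Among 9969 genes, the pericyte and fibroblast receptor Pdgfrb was the most like Aldh1a2 (Pearson r = 0.98, Spearman rho = 0.92), Rrbp1 the most like Crabp1 (0.98, 0.97) and Barx1 the most like Rbp4 (0.98, 0.89), with the matrix gene Dcn next (0.98, 0.93). Cachd1 was the most like Rarb (0.97, 0.91), Golm1 the most like Rara (0.97, 0.96), Adamts14 the most like Aldh1a3 (0.95, 0.92) and S100a10 the most like Rarg (0.94, 0.89). For Aldh1a1 it was Cebpb (0.91, 0.89), and for Crabp2 it was Cecr2 (0.83, 0.76). Among the retinoid genes themselves, Aldh1a2 followed Rbp4 at r = 0.89 and Crabp1 at 0.87, while Aldh1a1 and Aldh1a3 ran opposite, at -0.80.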

How the data were processed

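Total RNA of 4 sorted populations, in 12 libraries, was sequenced as single 50 nt reads. The deposited values are raw counts, whole numbers of reads for each gene. The authors, per the labels' protocols, mapped reads to GRCm38 with STAR 2.4.2a and counted them with featureCounts; FastQC, Picard 1.129 and featureCounts 1.4.6-p3 are listed in the submitters' processing notes. The sources used here give neither an annotation release nor a strand setting. Totals were 5589037 to 13724364 counts per library.

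The analysis used edgeR 4.0.16 in R 4.3.3. All 12 libraries entered a single quasi-likelihood fit with TMM scaling and filterByExpr, with 8 residual degrees of freedom and a common biological coefficient of variation of 0.437. Tests of the 4 pairwise comparisons and of the interaction used Benjamini-Hochberg adjustment over 17030 genes at a threshold of 0.05. The run was tested in a fit of population plus run. Standard errors come from the F statistic. The 95% intervals of log2 differences use a normal approximation on them, which is narrower than an interval that allows for the degrees of freedom. The fit was tested on simulated data. CPM follow TMM scaling; log2 CPM used a prior count of 2. Positions are from GENCODE M21 and promoters from RefSeq on GRCm38.p6.

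The retinoid genes, the pathway lists and the cell lists were chosen with earlier results of these data known. The 9 genes are all named; from each pathway list up to 4 genes per comparison past the threshold with the smallest adjusted p are named; and for each retinoid gene the 3 most alike genes with a mean of 10 CPM in a population, of which 1 or 2 are written out. Rdh10, Dhrs3, Cyp26b1 and Tshz1 fall outside this and were named after their values were seen, and some listed genes are not reported here.

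Libraries of a run deviated together from their population means. Over 18 pairs within runs r was 0.0928 to 0.408, and every pair set together by the 4 pairwise comparisons was over 0.1, so runs pair the libraries there. The lowest pair, Kit+K5- with Kit-K5+, enters only the interaction. Alternatives were other scalings, no filter, DESeq2 1.42.0, the run as a block and leaving out each library. Unless the block is named, calls, standard errors and fits that left out 1 library leave the pairing by run out. For the retinoid genes, each call that the block changed is given beside them. For the pathway genes the block is given as counts, and by gene for Cyp26b1 alone.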

Additional observations from a re-analysis of the deposited data

Results flagged for a closer look

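The interaction of Kit and K5 was called for 3 retinoid genes, beside 4.02% of all genes: Aldh1a2 (4.77 on the log2 scale), Crabp1 (3.77) and Rbp4 (7.59). Each lost the call in some fits, as given above. It was also called with a positive value for 11 of 16 mesenchyme genes, at a list median of 4.35. The part of the mesenchymal RNA of Kit-K5- libraries in these interactions was not tested. Of the pathway genes, the interaction was called for Gata6 (4.20, adjusted p = 0.00988) and Rai14 (1.76, adjusted p = 0.00490), with more negative K5 differences within Kit- cells. It was called in the other direction for Meis1 (-1.49, adjusted p = 0.0181) and Tgm2 (-2.21, adjusted p = 0.0303). Of 12 fits that left out 1 library, Meis1 kept the call in 6, losing it without Kit+K5+ replicate 1, Kit-K5- replicate 1 or replicate 2 of any population. Tgm2 kept it in 4, those without Kit+K5- replicate 1, Kit+K5+ replicate 2, or replicate 3 of either Kit- population, and lost it when scaled to general epithelial genes. That scaling gave Meis1 0.18. Groups of 3 libraries were not screened for single outlying libraries.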

How the results depend on the processing

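Of 16 called differences of the retinoid genes, 16 held with DESeq2 and with relative log expression, 15 with upper-quartile scaling and without a filter, and 14 with scaling to general epithelial genes. The last scaling shifts most genes in the direction of most of these calls, so it is a weak check of them.

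With the replicate block on the run, 15 of 15 calls held and 3 more passed. The block turned Rarb for K5 in Kit+ cells to 0.035, Rarg for Kit in K5- cells to -0.013 and Crabp2 for K5 in Kit- cells to -0.29. It changed the call of Aldh1a1, Rarb and Rara as given beside them, and of no other retinoid gene. All genes called went from 0 to 54, from 112 to 788 and from 684 to 1418 for K5 in Kit+, Kit in K5+ and the interaction.

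Scaling to general epithelial genes turned Aldh1a1 to -0.073 (K5 in Kit-), -1.59 (Kit in K5-) and 0.56 (interaction), Rarg to -1.03, -2.02 and 1.26 and Crabp2 to -1.60, -1.96 and 0.36 in the same order, and Aldh1a3 for Kit in K5+ to -0.35. Of pathway genes it turned Fabp5 to -0.74 and -0.77, Meis1 to -0.089, -0.71 and, for the interaction, 0.18, Meis2 to -0.12 and Adh5 to -1.24. It raised the members called for the interaction from 3 to 5. All genes called became 35, 11365, 231, 12760, 7978 and 321, from 0, 2806, 112, 3624, 684 and 606, for K5 in Kit+, K5 in Kit-, Kit in K5+, Kit in K5-, the interaction and the run, and 11231 of 11365 and 12721 of 12760 were lower. Of 36 pathway genes, it called 26 and 31 lower for K5 in Kit- and Kit in K5-. The scaling gives each gene relative to epithelial RNA.

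Aldh1a3 for Kit in K5+ was -0.026 with relative log expression, -0.11 with upper quartile and -0.016 with DESeq2, and Rarg for Kit in K5- was -0.015 with relative log expression and -0.025 with DESeq2. Without a filter Crabp2 for K5 in Kit- was -0.063. The members called for Kit in K5+ went from 0 to 1, and for the run from 1 to 2, both without a filter and with DESeq2. All genes called were, without a filter and with DESeq2, 318 and 122 (K5 in Kit+), 1212 and 1076 (Kit in K5+), 1960 and 1430 (interaction) and 2121 and 1983 (run). With upper quartile, 35 of 99 genes were higher for Kit in K5+ (57 of 112 in the report's fit) and 369 of 631 for the interaction (478 of 684).

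Leaving out each library gave 3 to 6 members called for K5 in Kit- (3 without Kit-K5+ or Kit-K5- replicate 2), 1 to 3 for the interaction (1 when Kit-K5- replicate 1 was left out, and 1 when Kit+K5+ replicate 2 was) and 1 to 2 for the run (2 without Kit-K5- replicate 1 or 3). All genes called ranged over 0 to 4, 1362 to 3157, 4 to 240, 2123 to 3754, 370 to 729 and 210 to 892 in the order above; the lowest for K5 in Kit- and for the interaction came without Kit-K5- replicate 1, and for Kit in K5+ without Kit+K5+ replicate 1. Uncalled differences that changed sign ranged over -1.19 to 0.23 for Aldh1a2 in K5 in Kit+ and -1.51 to 0.10 in Kit in K5+, -0.25 to 0.51 for Aldh1a3 in Kit in K5+, -0.42 to 0.66 for Rarb and -0.0047 to 0.38 for Rarg in K5 in Kit+, -0.15 to 0.23 for Rarg in Kit in K5-, and -1.73 to 1.88 for Rbp4 in Kit in K5+. Crabp2 ranged over -1.79 to 0.54 (K5 in Kit-), -1.71 to 0.63 (Kit in K5+), -0.12 to 0.36 (Kit in K5-) and -1.88 to 0.45 (interaction), its extreme without Kit-K5+ replicate 3 in 3 of these 4. Except where a cause is stated, the cause was not tested. Depth limits Rbp4, with 1 to 9 counts per population outside Kit-K5-.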
